A study of Mus musculus with 51 samples.

Results

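Slc6a15, Cnih2, Reep1, Sema3b, Arsi, Lmo4, Prmt1, Naa30, Nme4 and Lrrc1 are 10 genes picked for their high level in unsorted transplanted mammary tumors of mice with the Etv6-NTRK3 fusion. They are 10 of the 15150 genes tested here, out of 18192 genes with a probe set of their own, and all 10 passed the filter on low values. Together they have 14 probe sets on the array. They were chosen by their measured difference between unsorted transplants and the other tumors, so that difference is described below and not tested. Tests are given only for comparisons among the other groups.

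RNA was measured on 51 Affymetrix mouse arrays, which give 50 separate tissues after the 2 arrays of the tumor of mouse CR115 are averaged. The tumors arose in mice with a conditional Etv6-NTRK3 knockin allele, a gene fusion found in human secretory breast carcinoma, switched on in mammary epithelium by Cre recombinase under the milk protein promoter Wap. Cells that have undergone recombination carry lacZ from a Rosa-Stop-lacZ reporter, and sorted samples are cells gated for it. The groups are 5 whole wild-type glands (5 mice), 4 sorted hyperplasias (4 mice), 8 sorted primary tumors (6 mice), 7 sorted transplanted tumors (5 mice of origin, passages 1 to 4), 22 unsorted primary tumors (14 mice) and 4 unsorted transplanted tumors. All groups but the wild-type gland carry the fusion. Every transplanted tumor grew in a RAG2-/- recipient, a host without mature B and T cells. The 4 unsorted transplants come from only 2 mice of origin, CR90 (recipients 1 and 2) and CR115 (recipients 3 and 4), their passage is not given, and mouse CR90 has no primary tumor among the arrays used here. Ages are not given in the labels.

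The 10 genes do not form a pathway. Slc6a15 carries neutral amino acids into cells with sodium and is best known from brain. Cnih2 is a cornichon protein that escorts AMPA-type glutamate receptors out of the endoplasmic reticulum, and Reep1 shapes tubules of that organelle. Sema3b is a secreted class 3 semaphorin, a ligand that acts through neuropilin and plexin receptors. Arsi belongs to the sulfatase family. Lmo4 is a LIM-only nuclear adaptor known from mammary epithelium, where it acts with the Ldb1 cofactor. Prmt1 is the main enzyme that places asymmetric dimethylarginine on proteins, and Naa30 is the catalytic subunit of the NatC amino-terminal acetyltransferase. Nme4 is a mitochondrial nucleoside diphosphate kinase. Lrrc1 is a scaffold protein with leucine-rich repeats, related to Scribble.

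Since the genes were grouped for a shared pattern, the 250 bases ahead of their start sites were read from the RefSeq promoter table (build GRCm38.p6), which held windows for 7 of the 10 genes. Of all 32851 such windows, 32.7% hold the GC box GGGCGG on either strand, and all 7 genes had a window with one. The 7 genes have 10 windows, so a count by gene is not the same measure as a share of windows. Window 2 of Lrrc1 had no GC box. The E-box CACGTG occurs in 6.02% of windows and was found ahead of 1 gene, Prmt1. The ETS motif CCGGAAG, of the family to which Etv6 belongs, occurs in 6.91% of windows and was found ahead of 1 gene, Naa30. Neither TGACGTCA (1.55% of windows) nor TGANTCA (6.75%) was found ahead of any of the 7. A match describes letters and not binding. Below are 3 of these windows, Prmt1 and Naa30 as the ones with the rarer motifs and Cnih2 as one with GC boxes alone. They are written 5′ to 3′ on the strand of the gene, with matches on either strand in capitals: minus strand chr19:5098522-5098771 for Cnih2, minus strand chr7:44986421-44986670 for Prmt1 and plus strand chr14:49171996-49172245 for Naa30.
Cnih2: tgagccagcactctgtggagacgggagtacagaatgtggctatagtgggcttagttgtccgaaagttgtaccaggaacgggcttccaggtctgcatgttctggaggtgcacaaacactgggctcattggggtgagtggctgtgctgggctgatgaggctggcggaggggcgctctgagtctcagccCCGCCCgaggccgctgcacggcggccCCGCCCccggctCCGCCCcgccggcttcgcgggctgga
Prmt1: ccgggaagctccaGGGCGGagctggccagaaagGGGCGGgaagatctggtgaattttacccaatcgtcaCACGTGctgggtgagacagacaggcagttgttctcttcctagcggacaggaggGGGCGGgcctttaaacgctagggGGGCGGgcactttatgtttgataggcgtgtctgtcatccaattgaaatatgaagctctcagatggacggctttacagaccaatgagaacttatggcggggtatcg
Naa30: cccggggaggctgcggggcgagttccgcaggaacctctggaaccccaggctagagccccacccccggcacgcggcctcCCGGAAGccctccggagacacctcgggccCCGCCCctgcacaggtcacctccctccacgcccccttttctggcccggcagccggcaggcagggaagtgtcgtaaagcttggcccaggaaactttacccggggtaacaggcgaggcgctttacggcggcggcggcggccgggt
In the Prmt1 window 4 GC boxes stand beside the single E-box. The Cnih2 window holds 3 GC boxes and the Naa30 window 1. Across the printed windows the share of G and C is 65.6% for Cnih2, 54.8% for Prmt1 and 72.0% for Naa30, against a median of 52.4% over all windows.

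Levels below are log2 of the deposited intensity with values under 32 raised to 32, so 5.00 is a floor and a gene there has no measured level. A difference of 1 is 2-fold, and folds that involve the floor understate the change. Group values are mean ± SD over tissues. A level is comparable between tissues for the same gene, not between genes. In unsorted tissue, a lower share of a cell type and less RNA per cell cannot be told apart.

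Of the 3 genes of membrane transport and the endoplasmic reticulum, Reep1 and Cnih2 were at or near the floor in most other tissues, and Slc6a15 in all glands and hyperplasias and part of the tumors. Slc6a15 was at 8.52 and 9.09 in the CR90 transplants and at 8.05 and 8.47 in the CR115 transplants. It was at the floor in all 5 wild-type glands and all 4 hyperplasias, and above it in 11 of 22 unsorted primary tumors (highest 7.38), 3 of 8 sorted primary tumors (highest 7.48) and 3 of 7 sorted transplants (highest 7.29). The 4 unsorted transplants thus lay above every other tissue, 8.41-fold over the unsorted primary tumors by group means (limma difference 3.10 ± 0.44, SE) and 6.94-fold over the sorted transplants. Reep1 was at 8.08 and 8.45 in the CR90 transplants and 7.16 and 7.0 in the CR115 transplants. Elsewhere it rose above the floor in 6 of 22 unsorted primary tumors (highest 5.89) and 1 of 8 sorted primary tumors (6.91). It also did so in 2 of 7 sorted transplants (highest 5.87) and 2 of 5 wild-type glands (highest 5.30). Again there was no overlap, and the fold was 5.92 over unsorted primary tumors and 5.59 over sorted transplants. The second probe set of Reep1 was at the floor on every array. Cnih2 was at 6.29, 6.97, 5.93 and 6.16 in the transplants of recipients 1 to 4. Its unsorted primary tumors reached 6.03, above 1 of the 4 transplants, and the fold was 2.26 over unsorted primary tumors.

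**Figure D1:**
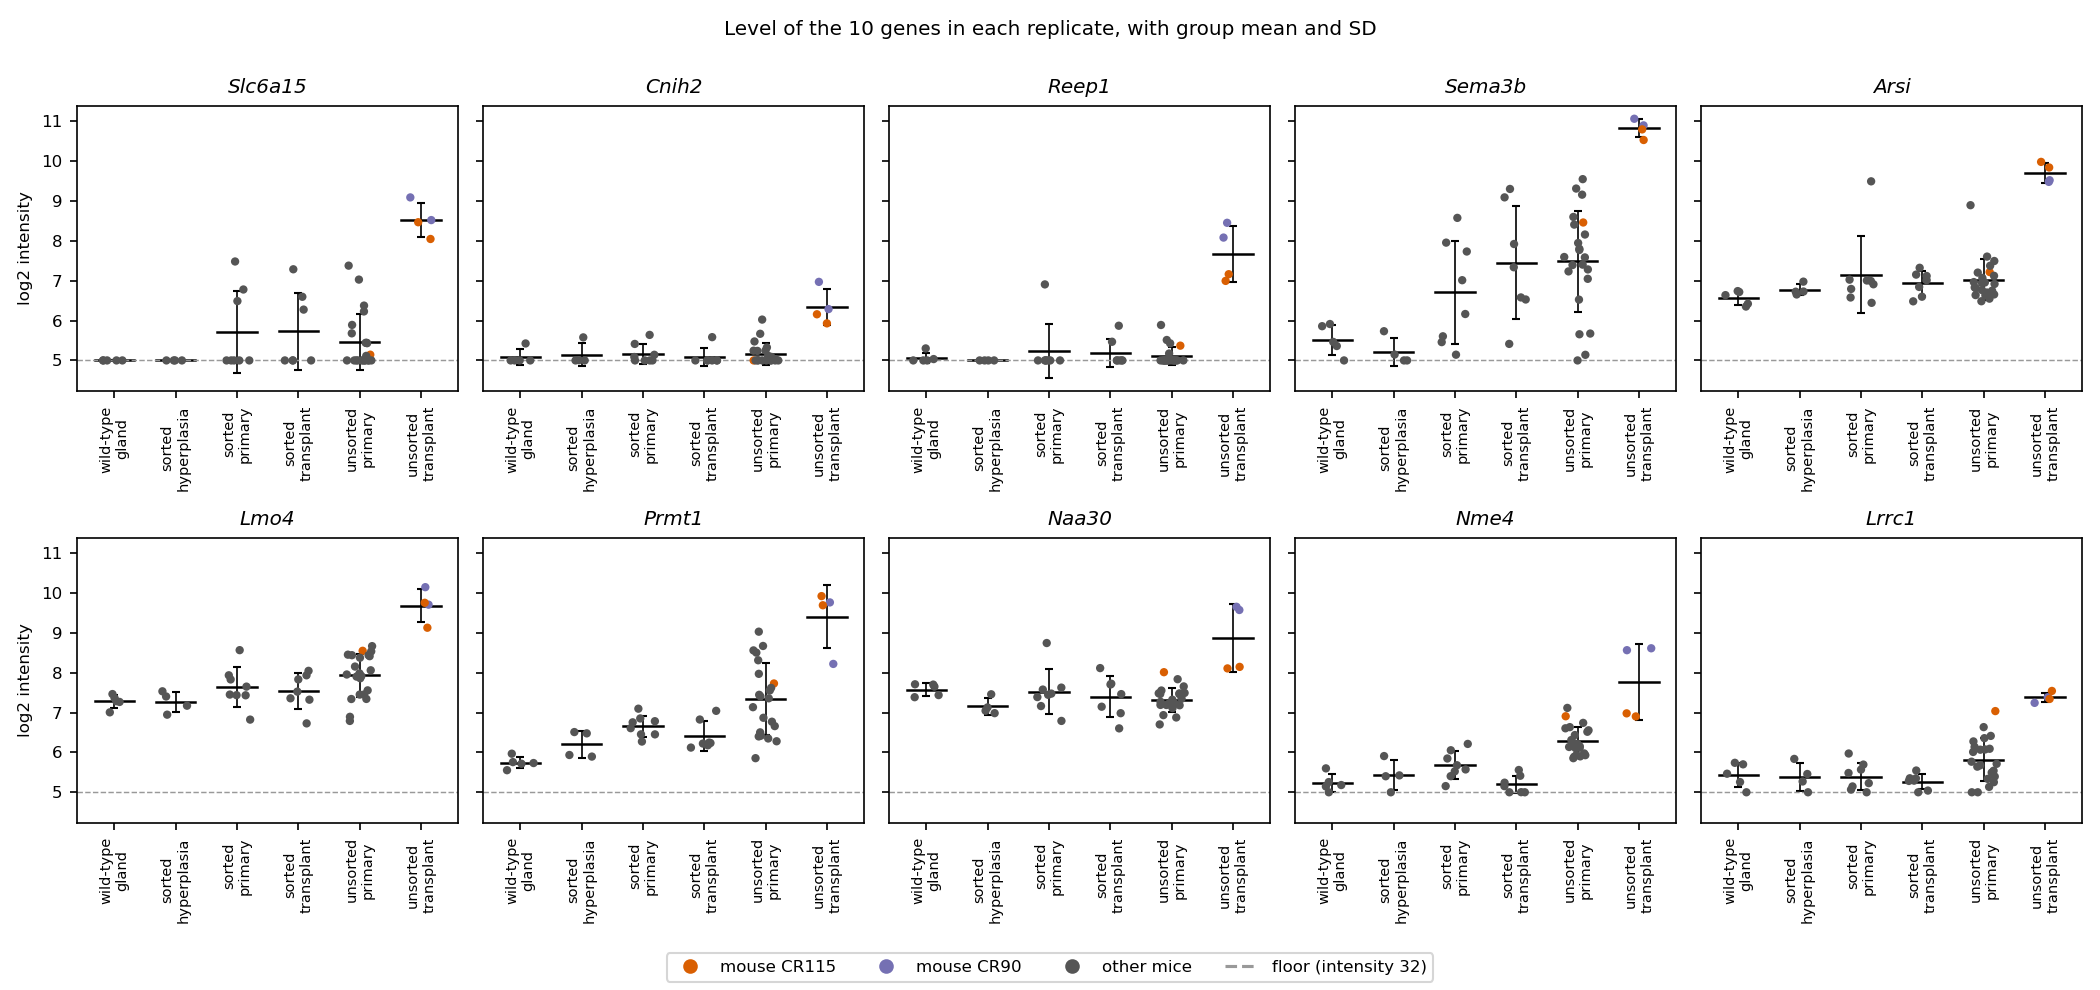
Log2 intensity (y axis) of the 10 genes in the 6 groups of tissues (x axis); each point is 1 tissue, bars are group means with SD, and the dashed line is the floor of 5. The 4 unsorted transplants stand above all other tissues for Slc6a15, Reep1, Sema3b, Lmo4 and Lrrc1, while Arsi and Naa30 have 1 sorted primary tumor at 9.50 and 8.75 within their range.

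Sema3b varied from the floor upward among tumors and Arsi was above the floor in all of them, and both were higher in the unsorted transplants by group means. Sema3b was at 10.90 and 11.07 in the CR90 transplants and at 10.53 and 10.80 in the CR115 transplants, a mean of 10.83 ± 0.22. The unsorted primary tumors ran from 5.00 to 9.55 with a median of 7.59, and the sorted transplants from 5.41 to 9.30 with a median of 7.34. Its spread among tumors was thus the widest of the 10 genes (SD 1.27 in unsorted primary tumors), yet on this probe set no tumor reached the unsorted transplants, which were 10.1-fold above unsorted primary tumors (limma difference 3.05 ± 0.67, SE) and 10.3-fold above sorted transplants. The other 2 probe sets of Sema3b had means of 9.94 and 7.62 in unsorted transplants against 6.03 and 5.29 in unsorted primary tumors. On the dimmer of them the highest sorted transplant (7.50) lay above the lowest unsorted transplant (7.26). Arsi was at 9.48, 9.52, 9.98 and 9.84 in recipients 1 to 4. Its other groups lay close together, with means between 6.57 in wild-type gland and 7.16 ± 0.97 in sorted primary tumors. The sorted primary tumor G294T was an exception at 9.50, above the lowest unsorted transplant; the next sorted primary tumor was at 7.03. By group means Arsi was 6.41-fold higher in unsorted transplants than in unsorted primary tumors and 6.84-fold higher than in sorted transplants.

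Among the nuclear adaptor and the protein-modifying enzymes, Lmo4 separated fully and Prmt1 and Naa30 did not. Lmo4 was at 10.15 and 9.71 in the CR90 transplants and 9.76 and 9.13 in the CR115 transplants. All other tissues were at or below 8.67, the highest unsorted primary tumor, and the fold was 3.37 over unsorted primary tumors and 4.44 over sorted transplants. Prmt1 was at 9.77, 9.92 and 9.69 in recipients 1, 3 and 4 and at 8.22 in recipient 2, so the transplants of mouse CR90 differed by 1.54 between its 2 recipients. Unsorted primary tumors ran from 5.86 to 9.03 (median 7.38), which overlaps recipient 2, whereas the sorted transplants ended at 7.04; the folds were 4.18 and 7.95. Naa30 was at 9.58 and 9.66 in the CR90 transplants but at 8.15 and 8.11 in the CR115 transplants. The latter overlapped the sorted transplants (highest 8.12) and the sorted primary tumor G294T (8.75), and lay just above the highest unsorted primary tumor (8.01). On the probe set used, Naa30 was also the only member whose wild-type gland mean (7.58 ± 0.15) stood above the unsorted primary tumor mean (7.33 ± 0.30). Its second probe set had a mean of 7.99 in unsorted transplants, 6.49 in unsorted primary tumors and 6.45 in wild-type gland. There the gland mean was not the higher one, and the lowest transplant (6.88) was below the highest unsorted primary tumor (7.23).

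Nme4 and Lrrc1 were lower in sorted cells than in unsorted transplants throughout, reaching 6.21 and 5.97 in the highest sorted tissue. Nme4 was at 8.61 and 8.57 in the CR90 transplants and 6.90 and 6.98 in the CR115 transplants, and unsorted primary tumors ran from 5.86 to 7.12. The CR115 transplants therefore lay within the range of primary tumors and the CR90 transplants outside it. Sorted transplants reached only 5.56, which gives 5.94-fold between the means of unsorted and sorted transplants against 2.78-fold over unsorted primary tumors. Lrrc1 had the tightest transplant values, at 7.39, 7.24, 7.34 and 7.54 (SD 0.12). The highest other tissue was the primary tumor of CR115 itself at 7.04, and every sorted tissue was at or below 5.97.

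Counted over all 10 genes, the 4 unsorted transplants lay above every unsorted primary tumor for 7 genes, the exceptions being Cnih2, Prmt1 and Nme4. Over all genes tested this held for 0.541%. They lay above every sorted transplant for 9 genes (all but Naa30), against 11.4% of all genes, above every sorted primary tumor for 8 genes (not Arsi and Naa30), against 8.46%, and above every hyperplasia and every wild-type gland for all 10, against 19.7% and 22.9%. Above every other tissue at once they lay for 5 genes, against 0.350%. These shares describe the choice and support nothing further. The median difference of the 10 genes was 1.82 against unsorted primary tumors and 2.32 against sorted transplants, where all genes had medians of -0.0036 and 0.014. Over all genes, the limma fit called 0.944% between unsorted transplanted and unsorted primary tumors and 17.5% between unsorted and sorted transplants.

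Mouse CR115 is the one mouse of origin with both a primary tumor and unsorted transplants, and in it the 10 genes divided. Slc6a15 rose from 5.14 in the primary tumor to a mean 8.66-fold higher in the transplants, Arsi from 7.22 by 6.48-fold, Sema3b from 8.46 by 4.61-fold, Prmt1 from 7.73 by 4.22-fold and Reep1 from 5.37 by 3.27-fold. These are differences within 1 mouse and have no test. Cnih2, at the floor in the primary tumor, was 2.06-fold higher in the transplants, and Lmo4, at 8.55 in the primary tumor, was 1.86-fold higher. The remaining 3 were already high in the primary tumor: Lrrc1 at 7.04, Naa30 at 8.01 and Nme4 at 6.91, with transplants only 1.32-fold, 1.08-fold and 1.02-fold above; with the mean of its probe sets the log2 difference of Naa30 was -0.072. For Lrrc1 and Naa30 this primary tumor was the highest of the 22, and for Lmo4 and Nme4 the second highest, whereas 13.5% of all genes had it among their 2 highest.

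Both CR115 transplants were at least 2-fold above the primary tumor for 5 of the 10 genes, against 2.09% of all genes, and the median difference was 1.38 against 0 for all genes. Both transplants belong to the group on which the 10 genes were chosen, so these values describe the choice and support nothing further. The 2 arrays of this primary tumor give the technical spread only, not that between tissues: over all genes their median gap was 0.13 and 0.779% of genes differed by 2-fold or more. Prmt1 was among these, at 8.31 and 7.15, and even the higher array was below both transplants.

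The 2 mice of origin also differed from each other in some of the 10 genes. Both CR90 transplants stood above both CR115 transplants for 6 of the 10 genes (39.5% of all genes) and below them for Arsi (30.6% of all genes). The gap between mice was 1.65 for Nme4, 1.49 for Naa30 and 1.19 for Reep1, at least 2-fold each, a size that 5.23% of all genes reached. It was larger than the gap between recipients of one mouse, which for these 3 genes was at most 0.37. For the other 7 the gap between mice was at most 0.82. For Prmt1, Cnih2, Lmo4, Slc6a15 and Lrrc1 it was smaller than the larger gap between recipients of one mouse. That gap was 1.54, 0.68, 0.63, 0.57 and 0.20 in turn. For Sema3b and Arsi the gap between mice was the larger one. Recipient, mouse of origin and any unlabelled batch cannot be told apart with 2 recipients of each mouse.

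**Figure D2:**
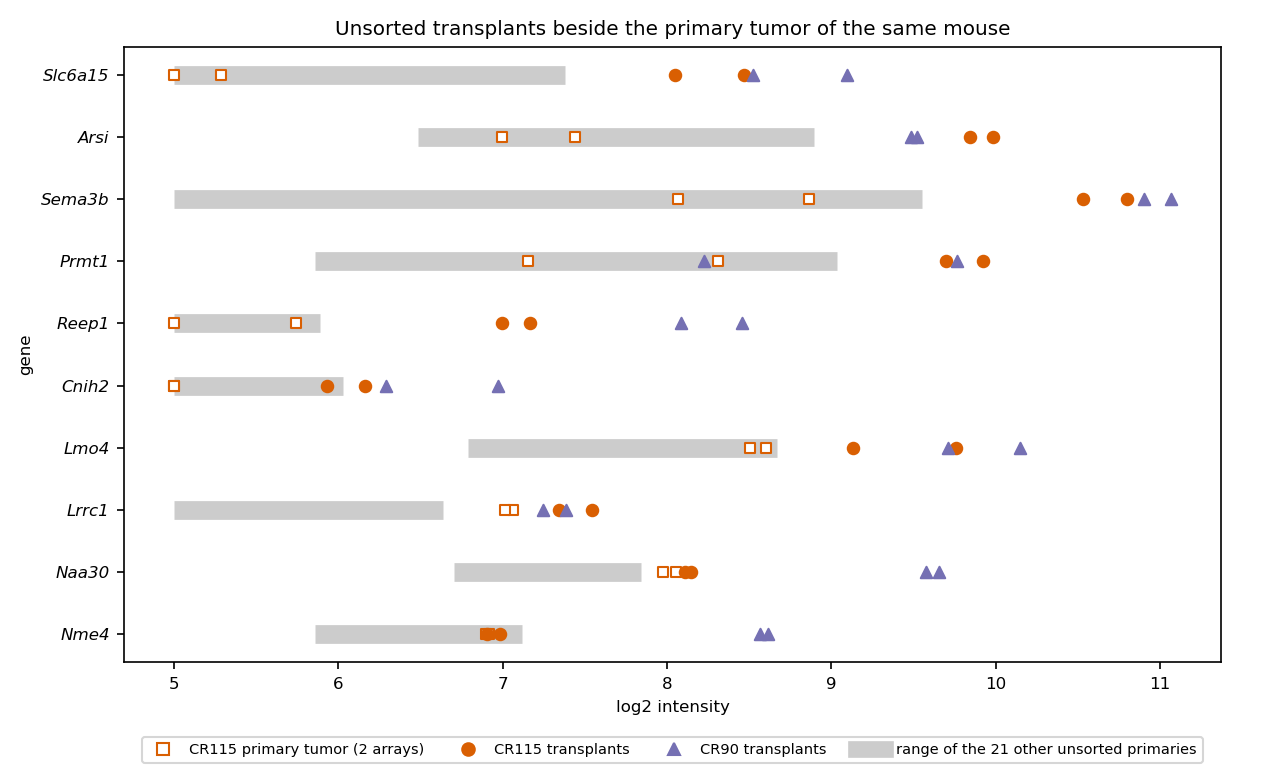
Log2 intensity (x axis) of the 10 genes (y axis) in the 2 arrays of the CR115 primary tumor (open squares), the 2 CR115 transplants (circles) and the 2 CR90 transplants (triangles), over the range of the other 21 unsorted primary tumors (grey bars). Squares and circles stand apart for Slc6a15, Arsi, Sema3b and Prmt1 and meet for Naa30 and Nme4.

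In sorted transplants the same genes did not move together. There are 5 pairs, from 3 mice with 1 measured primary tumor each. In mouse D279 the sorted transplants of tumor T1 were 1.48 (passage 2) and 2.17 (passage 4) above that unsorted primary tumor for Slc6a15, and a transplant of tumor T2 was 1.16 above the same T1 primary. The passage 4 transplant, at 7.29, was the highest sorted transplant. In E344 the transplant, from another tumor than the primary measured, differed from it by -1.49 for Slc6a15 and -2.05 for Sema3b. In F433, where transplant and primary are the same tumor and both sorted, Sema3b was 1.44 higher in the transplant and Slc6a15 was at the floor in both. Nme4 and Prmt1 were lower than in the primary tumor in all 5 pairs, of which 3 share the D279 primary and 2 set a transplant against another tumor of its mouse, with differences of -0.26 to -0.97 for Nme4 and -0.04 to -1.27 for Prmt1. In the 3 D279 pairs the transplant is sorted and the primary is whole tissue, so sorting and transplantation cannot be told apart there.

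A single sorted primary tumor, G294T, had several of these genes high. It was the highest of the 8 sorted primary tumors for 5 of the 10 genes, against 17.5% of all genes, with Slc6a15 at 7.48, Reep1 at 6.91 where the other 7 were at the floor, Arsi at 9.50, Naa30 at 8.75 and Lrrc1 at 5.97. For Reep1, Arsi and Naa30 it stood apart from the rest beyond Dixon's limit, which it did for 1.37% of all genes. Without it the sorted primary tumors ended at 7.03 for Arsi and 7.63 for Naa30. No transplant of G294T is among the arrays used here.

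Comparisons without the unsorted transplants were tested. Unsorted primary tumors may have entered the choice by being low, and sorted primary tumors may have too. For unsorted primary tumors against wild-type gland, a test is therefore given for a rise, which goes against the choice. In both groups of primary tumors, nothing is read from a gene that did not pass. Relative to wild-type gland, the limma fit with Benjamini-Hochberg adjustment over all genes called 4 of the 10 higher in unsorted primary tumors, where 29.4% of all genes were called higher. These were Sema3b (2.07 ± 0.58, SE, adjusted p = 0.00255), Prmt1 (1.59 ± 0.33, adjusted p = 6.94e-05), Nme4 (1.11 ± 0.21, adjusted p = 2.76e-05) and Lmo4 (0.65 ± 0.24, adjusted p = 0.0213). For Nme4 all 22 tumors lay above all 5 glands. At a floor of 100 in place of 32 the Nme4 difference was 0.073 (adjusted p = 0.857), since most of its tumor levels are under that floor, and without the wild-type gland G340 that of Lmo4 was 0.59 (adjusted p = 0.0682). Lrrc1 was 0.46 ± 0.21 higher and did not pass (adjusted p = 0.0561), but did without gland G337 (0.54, adjusted p = 0.0436) or G397 (0.53, adjusted p = 0.0492) and after quantile normalization (0.51, adjusted p = 0.0271). Slc6a15 (0.47 ± 0.38), Arsi (0.43 ± 0.28), Cnih2 (0.09 ± 0.14), Reep1 (0.04 ± 0.19) and Naa30 (-0.24 ± 0.22) were not called. In the same comparison all 10 endothelial markers were lower (median -2.65), 9 of 10 fibroblast markers were lower and 1 higher (median -2.94), and 5 of 10 luminal markers were higher and 1 lower. The 3′ minus 5′ Actb log2 level had a median of 0.83 (0.25 to 2.18) in wild-type gland and 0.47 (0.21 to 1.19) in unsorted primary tumors. Their part in these results was not tested.

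Between sorted primary tumors and sorted hyperplasia, both gated for lacZ, limma called none of the 10 genes, against 3.78% of all genes; 1 had an unadjusted p under 0.05. All 10 differences were above 0, with a median of 0.33 against 0.0072 for all genes. Those of Lrrc1 and Cnih2 were only 0.028 and 0.041. The shared sign and the median are given as values only, since nothing is read from genes that did not pass. Slc6a15 and Reep1 were at the floor in every hyperplasia, so their differences of group means could not fall below 0. The largest was that of Sema3b, 1.61 ± 0.71 (limma adjusted p = 0.216), from 5.22 ± 0.35 in hyperplasia to 6.71 ± 1.29 in tumors, followed by Slc6a15 at 0.85 ± 0.47 (adjusted p = 0.349), which 3 tumors carry. The smaller ones turned on single tissues: without G294T Lrrc1 was at -0.062, Reep1 at 0.032 and Arsi at 0.11, and without 1 hyperplasia Cnih2 (3 of 4) or Lrrc1 (2 of 4) fell below 0. The sorted samples also held markers of other cells. Macrophage markers were at 9.96 to 11.05 in sorted hyperplasia and 7.41 to 10.68 in sorted primary tumors (1 of 10 called lower in tumors), fibroblast markers at 9.68 to 10.37 and 6.89 to 10.60 (3 of 10 lower), and B and plasma cell markers at 6.33 to 8.88 and 5.55 to 6.81 (6 of 9 lower). Their part in this comparison was not tested. Against wild-type gland, limma called none of the 10 in sorted primary tumors (23.2% of all genes; 2 of the 10 with an unadjusted p under 0.05). Prmt1 came closest, at 0.93 ± 0.37 (adjusted p = 0.0648), with all 8 tumors above all 5 glands. In sorted hyperplasia against wild-type gland limma called none (21.3% of all genes; none with an unadjusted p under 0.05). Sorted cells are set against whole gland in these 2 comparisons, so sorting and lesion cannot be told apart. On simulated data of the same size, the tests recovered 61% to 73% of planted 2-fold changes and 94% to 97% of 4-fold ones. Those changes were planted only in genes with a mean above that of the median gene. The shares therefore do not hold for members near the floor.

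**Figure D3:**
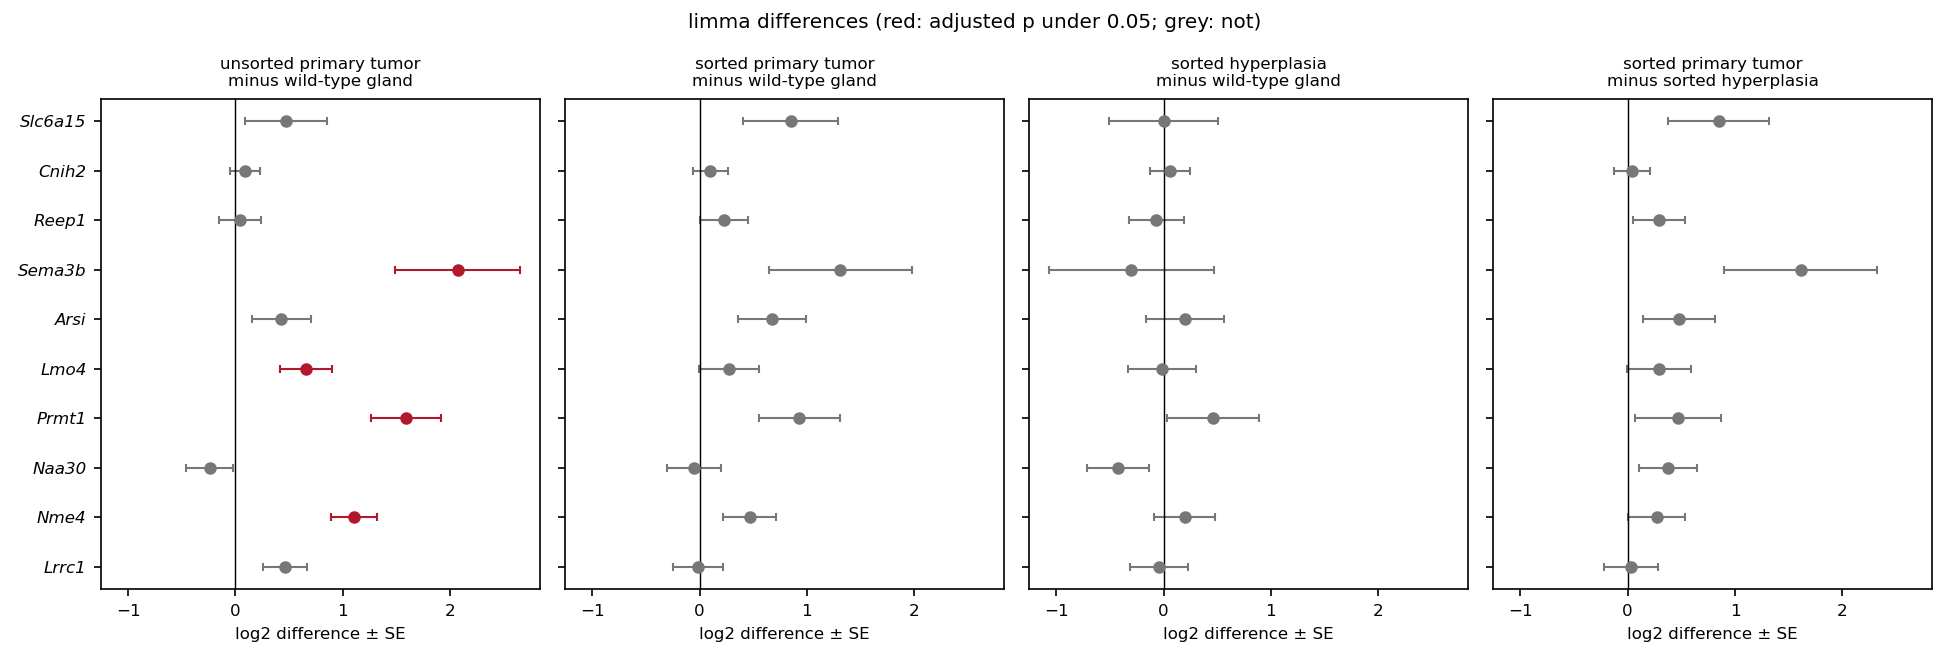
Limma differences in log2 intensity with SE (x axis) for the 10 genes (y axis) in the 4 comparisons that were tested. Red points passed an adjusted p of 0.05 and grey points did not. Only Sema3b, Prmt1, Nme4 and Lmo4 passed, each in unsorted primary tumors against wild-type gland.

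Related genes were examined by family. Lists of related genes, 10 in all, hold 109 tested genes besides the members. Between unsorted transplants and unsorted primary tumors limma called none of the 109 (12 had an unadjusted p under 0.05), where 0.944% of all genes were called. Relative to wild-type gland, 36 of the 109 rose and 25 fell in unsorted primary tumors, 56.0% against 51.0% of all genes, so the share was near the background.

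Within the families the direction in unsorted primary tumors varied. The arginine methyltransferase list also holds Wdr77 and Btg1, which are partners and not such enzymes. Of its 9 other genes 7 rose, Wdr77 among them, and 2 fell, Btg1 among them. Prmt5 rose by 1.37 ± 0.23 and Prmt9 by 1.07. Of 9 amino-terminal acetyltransferase genes 6 rose, Naa38 the most at 1.09, and 1 fell, Naa35 at -0.67. Of 6 other nucleoside diphosphate kinases 4 rose and none fell, led by the cytosolic Nme1 at 1.07 ± 0.16. The Lmo4 partner Ldb1 rose by 1.84 ± 0.19, one of 3 of 8 related genes that rose, while 2 fell, Lmo2 at -1.50 and Ldb2 at -1.45. Sema3b rose, whereas of 15 related semaphorin and receptor genes 1 rose, the plexin Plxnb2 by 1.41, and 8 fell, among them the co-receptors Nrp1 at -2.65 ± 0.40 and Nrp2 at -1.90 ± 0.19; 6 were not called. The endothelial and fibroblast markers given above were lower in the same comparison. Amino acid transporters split, 6 rising and 5 falling of 19, with the large neutral transporter Slc7a5 up by 2.66 ± 0.45 and the cationic transporter Slc7a2 down at -2.01. Of 11 sulfatase genes 2 rose and 4 fell, the extracellular Sulf2 at 1.23 and the lysosomal Ids at -1.56. Among 12 genes that shape the endoplasmic reticulum 4 rose and 2 fell, with Reep6 at 1.29 and Reep4 at 1.18. Of 9 cornichon and AMPA receptor genes 2 rose, Cnih4 by 0.89 and Cnih1 by 0.84, and none fell. Of 11 polarity genes related to Lrrc1, Dlg5 rose by 0.74 and Erbin fell by 0.46 on the log2 scale. Between sorted primary tumors and hyperplasia 5 of the 109 passed, Scrib, Carm1 and Deaf1 higher and Plxnd1 and Gria2 lower, 4.59% against 3.78% of all genes.

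Primary tumors of a single mouse differed mostly in Sema3b. In the 6 mice with several unsorted primary tumors (14 tumors), Sema3b varied by 2-fold or more between tumors of the same mouse in 5. In mouse C117 its levels were 7.59 in T1, 5.00 in T3, 5.14 in T5 and 7.95 in T6. Slc6a15 was at 7.03 in B459U and at the floor in B459L, while Arsi was at 6.75 in B459U and 8.90 in B459L, so the high tumor of that mouse was not the same for both. Prmt1 reached 9.03 in D206T1 against 7.41 in D206T2, and it varied by 2-fold or more in 2 mice, as did Lmo4. Nme4 did so in 1 mouse, and Cnih2, Reep1, Naa30 and Lrrc1 in none. In all, 12 of 60 sets of a member in a mouse spanned 2-fold or more, against 7.28% over all genes. The highest Slc6a15 level of a primary tumor was 7.38, in C231T1.

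**Figure D4:**
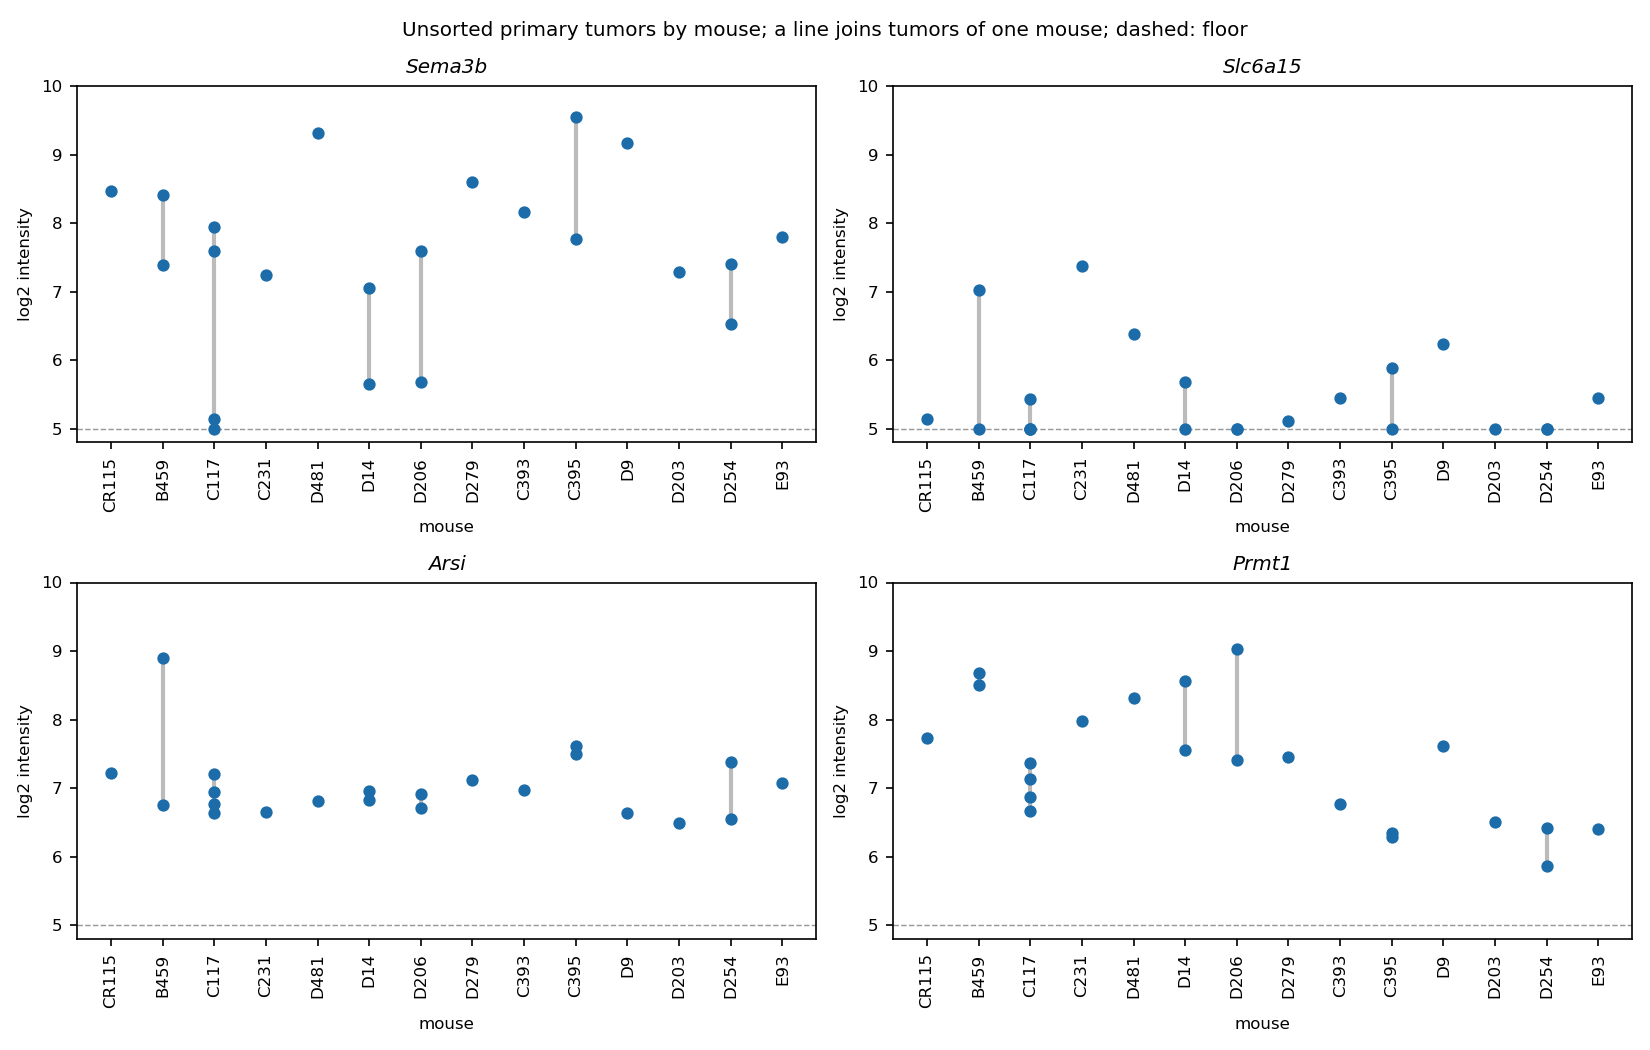
Log2 intensity (y axis) of Sema3b, Slc6a15, Arsi and Prmt1 in the 22 unsorted primary tumors by mouse (x axis); each point is 1 tumor, grey lines join tumors of one mouse, and the dashed line is the floor of 5. Sema3b spans 5.00 to 7.95 within mouse C117, and the B459 tumor with Arsi at 8.90 is the one with Slc6a15 at the floor.

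Across the 22 unsorted primary tumors, a group that does not hold the transplants, the members were only loosely related to one another. Of 36 pairs among the 9 members above the floor in at least 11 tumors, 28 had a Pearson r above 0, with a median of 0.18 and a range from -0.56 (Lmo4 with Prmt1) to 0.55 (Sema3b with Lrrc1). All these correlations are descriptions over 22 tumors of 14 mice, which share arrays and tumor make-up. Each member had its own closest genes. Prmt1 was most like the zinc finger gene Zc3h7b (r = 0.89, Spearman's rho = 0.87) and the pentose phosphate enzyme Tkt (0.88, rho = 0.84). Naa30 was most like the kinesin receptor Ktn1 (r = 0.83, rho = 0.74) and the adaptor subunit Ap3m1 (0.81, rho = 0.78), and Lrrc1 like the sodium-sugar transporter gene Slc5a9 (r = 0.83, rho = 0.82) and Pof1b (0.81, rho = 0.80). Sema3b was closest to the proprotein convertase Pcsk6 (r = 0.81, rho = 0.63) and Smpdl3b (0.78, rho = 0.81). Arsi came nearest to the ribosome export factor Nmd3 (r = 0.79, rho = 0.62) and Rbm12 (0.77, rho = 0.63), Nme4 to Tex30 (0.78, rho = 0.77) and Elmo1 (0.75, rho = 0.69), and Lmo4 to the condensin subunit Smc4 (0.77, rho = 0.67) and Usp18 (0.76, rho = 0.78). Slc6a15 reached 0.71 with Rap1gap (rho = 0.58) and 0.70 with Stac2 (rho = 0.54). For Cnih2 the r of 0.80 with the endosomal Rab5a goes with a rho of only 0.37, and Pspc1 had 0.77 with a rho of 0.54.

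Marker genes of other cells were read as the mean log2 level of a list in each tissue. Luminal epithelial markers were at 10.88 to 11.20 in unsorted transplants, within the 10.33 to 11.54 of unsorted primary tumors. Fibroblast markers (7.36 to 7.91) and macrophage markers (7.64 to 7.97) lay within the primary tumors' ranges, 5.78 to 10.18 and 7.41 to 9.33. For Slc6a15, Cnih2 and Reep1, known from nerve cells, the neuronal and neuroendocrine list was at 5.46 to 5.62 in unsorted transplants. This lay within the 5.41 to 5.75 of unsorted primary tumors. Of its 12 tested markers, 5 were at the floor in all 4 unsorted transplants (Chgb, Syt1, Stmn2, Scg2 and Scg3). Endothelial markers were at 5.78 to 5.98 with Pecam1, Tek and Tie1 at the floor in all 4, T and NK cell markers at 5.38 to 5.73 (5.60 to 6.06 in unsorted primary tumors) with Cd2 and Cd28 at the floor, and B cell markers at 5.53 to 5.75 with Ms4a1, Cd79b and Jchain at the floor. Skin markers, at 6.07 to 6.85, reached just above the primary tumors' 5.24 to 6.84, with Krt1, Flg and Ivl at the floor in all 4, and their part in the results was not tested. As a measure of intact RNA, log2 levels of 3′ minus 5′ Gapdh probe sets were -0.04 to 0.09 in unsorted transplants and -0.06 to 0.59 in unsorted primary tumors.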

How the data were processed

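Total RNA was extracted with Trizol and hybridized as biotin-labelled cRNA, per the labels' protocols. Each array has a column of deposited probe set intensities, not on a log scale. The sources used here do not give the authors' summary method, scaling or genome build, so no gene coordinates are printed for members other than promoter windows.

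Of 45101 probe sets, 64 controls and 1 probe set with 2 extreme values were left out. Intensities under 32 (37.4% of values) were raised to 32 before log2. Symbols are those of the array's platform table, brought up to date by Entrez identifier with RefSeq of GRCm38.p6 (34740 probe sets); 34944 probe sets had 1 symbol, 932 several and 9160 none, and those with 1 were used. The brightest probe set by mean stood for a gene, and genes above the array's 40th percentile on at least 4 arrays were tested. The main model in limma 3.58.1 (R 4.3.3) held all 6 groups, used lmFit and eBayes, and treated the mouse of origin as a random block (correlation 0.36). Benjamini-Hochberg adjustment ran over all genes, at 0.05. The number of arrays limits the precision. Array medians lay between 42.9 and 57.8. The labels give no batch, and detection calls were not used.

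The 10 genes and all lists were chosen with earlier results of these data known. Named genes were the members, the 2 genes most like each over unsorted primary tumors, and at most 3 called genes per family list with the largest differences. Plxnb2 and Naa35 were named besides, each as the only related gene of its list called in its direction in unsorted primary tumors. Wdr77 and Btg1 were named as partners. Other floors, filters, probe rules, normalization, blocks and left-out replicates were tried, and the fit was tested on simulated data.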

Additional observations from a re-analysis of the deposited data

Results flagged for a closer look

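In 47 sets of a gene within a group, 8 values stood apart from the rest of their group beyond Dixon's 95% limit. Chance gives about 1 in 20 where values vary freely; in groups at the floor any single value above it passes, as for Cnih2 in sorted transplants and wild-type gland and Reep1 in sorted primary tumors. Of the 8, 3 belong to the sorted primary tumor G294T: Reep1 at 6.91, with the others at 5.00, Arsi at 9.50, with the next at 7.03, and Naa30 at 8.75, with the next at 7.63. In the unsorted transplants Prmt1 was lowest in CR90-2, at 8.22, with the next at 9.69. The other 4 are within about 0.58 of the floor: Cnih2 at 5.58 in the hyperplasia F493H, 5.58 in the sorted transplant D279T1P4 and 5.43 in the gland G397, and Reep1 at 5.30 in the gland G337.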

How the results depend on the processing

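The 4 unsorted transplants from 2 mice and the fixed floor limit these results, and the cause of the changes below was not tested unless stated. With a floor of 100, which leaves dim genes no measured level, the median over the 10 genes was 1.43 against unsorted primary tumors, 1.53 against sorted transplants and 0.66 within mouse CR115, and the difference to unsorted primary tumors was 0.07 for Cnih2 and 0.94 for Reep1. With the mean of a gene's probe sets these medians were 1.45 against unsorted primary tumors and 0.97 within CR115, where Naa30 turned to -0.072, and with a floor of 16 the latter was 1.85.

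Counts over all genes moved more. Between sorted primary tumors and hyperplasia the call of 573 genes became 887 without a block for mouse, 13 with only the groups compared and 84 without hyperplasias G376H and F493H, an alternative chosen after seeing the data, which also gave 1076 against 3229 for hyperplasia and wild-type gland. Between sorted primary tumors and gland, 3521 became 2241 with a floor of 100 and 1382 with only the groups compared. Prmt1 was then 1 member called (0.91, adjusted p = 0.00599), as after quantile normalization (1.02, adjusted p = 0.0437). Between unsorted transplants and unsorted primary tumors, 143 became 239 with a floor of 100, 822 without the block and 245 with only these groups. Against sorted transplants 2652 became 4437 and 1232 under the latter changes.

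Leaving out 1 replicate at a time gave 157 to 946 genes for sorted primary tumors against hyperplasia, with 0 of the 10 called each time, and 3 to 5 of the 10 for unsorted primary tumors against gland. For unsorted transplants against unsorted primary tumors it gave 66 to 162 genes and a median of 1.65 to 1.96, the lowest without CR90-2 and 75 without CR90-1.

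Other differences that changed sign were all uncalled. For sorted primary tumors against hyperplasia they were Lrrc1 without G294T (-0.062) or both hyperplasias (-0.23), and in leaving out 1 hyperplasia Lrrc1 (-0.10 to 0.18) and Cnih2 (-0.0085 at the lowest). For sorted primary tumors against gland, Lrrc1 was 0.00060 with a floor of 100, 0.0032 with a floor of 16, 0.013 after quantile normalization, 0.015 with only these groups and -0.12 to 0.064 without 1 replicate; Reep1 was -0.27 with a floor of 16 and -0.035 without G294T, and Naa30 was 0.39 with the mean of probe sets. For hyperplasia against gland, Lmo4 was 0.011 after quantile normalization and 0.0084 to 0.092 where its sign changed without 1 replicate, Lrrc1 -0.19 to 0.090 and Cnih2 -0.083 to 0.15; without both hyperplasias these were 0.19, 0.22 and -0.082, and Nme4 was -0.025. Reep1 in unsorted primary tumors against gland was -0.18 with a floor of 16. In all, 743 of the values of single genes stayed the same. In tested comparisons this means the same direction and side of the threshold. In comparisons with unsorted transplants it means a shift smaller than the SD of the transplants, and 30 values shifted by more. In tested comparisons 30 values changed sign, 5 became called and 2 were no longer called. By replicate number, no paired analysis was possible because the labels share no replicate numbers between groups. Mouse and tumor names do link some tissues of different groups, as in CR115, D279, E344 and F433. Their differences are given above as values without a paired test. Mice of origin that groups share are the random block of the main fit.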
